A study of Homo sapiens with 28 samples.

Results

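The p53 target genes described here are 34 genes listed by name for their place in the p53 pathway, and 32 of them were measured, each by 1 probe set, among 17687 named genes. BTG2 and FDXR were not measured by name here. Total RNA came from 7 human acute myeloid leukemia (AML) lines kept for 8 days in 1 µM Pinometostat, an inhibitor of the histone methyltransferase DOT1L, or in the vehicle alone (DMSO at 0.01%), and was hybridized to Clariom S arrays, 2 arrays per line and condition and 28 in all. The labels give MLL rearranged (MLL-r) as the genotype of MV4-11, NOMO-1, MOLM-13 and THP-1 and MLL wild type (non-MLL-r) as that of OCI-AML3, U-937 and HL-60. Each is an established line in culture and stands for itself alone. MV4-11, MOLM-13 and OCI-AML3 were taken as p53-competent and NOMO-1, THP-1, U-937 and HL-60 as p53-deficient. This split is general knowledge of the lines, is not in the labels and was not checked on the arrays, and each side holds both MLL genotypes. Nothing in the labels says that the 2 replicates of a condition came from separate cultures, so p-values measure the spread between these samples, which may be technical.

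p53 is a transcription factor that is held at a low level by the ubiquitin ligase MDM2 and accumulates after DNA damage, nucleotide shortage or oncogene activity. It then switches on genes that stop the cell cycle, repair DNA, adjust metabolism or start cell death, together with genes such as MDM2 and PPM1D that turn p53 down again. AML cells with working p53 keep this feedback loop, and p53 targets are the usual readout of drugs that block MDM2.

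The stretch around the transcription start was read for the members that RefSeq's promoter table holds (GRCh38.p14, 250 bases before to 50 after the start), which were 27 of the 32. The decamer known as the p53 half-site, which reads the same way on both strands, lay in 3 of these 27 windows (11.1%), against 6.06% of 14250 windows of genes on the array. Those members were AEN, PLK2 and RPS27L. A pair of half-sites at most 13 bases apart was found in 0 of 27 windows and in 0.0211% of all windows. They are shown with CDKN1A, whose window has no half-site and whose change after Pinometostat was the largest of the 32 members. In each line below the capitals mark the half-site, and the windows are AEN at chr15:88621090-88621389 (plus strand), PLK2 at chr5:58460037-58460336 (minus strand), RPS27L at chr15:63157428-63157727 (minus strand) and CDKN1A at chr6:36678464-36678763 (plus strand).
AEN: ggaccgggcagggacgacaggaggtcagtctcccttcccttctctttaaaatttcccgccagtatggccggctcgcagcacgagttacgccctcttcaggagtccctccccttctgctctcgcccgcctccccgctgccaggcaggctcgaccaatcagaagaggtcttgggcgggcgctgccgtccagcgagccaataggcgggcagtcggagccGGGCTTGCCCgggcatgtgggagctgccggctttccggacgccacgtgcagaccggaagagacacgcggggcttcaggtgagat
PLK2: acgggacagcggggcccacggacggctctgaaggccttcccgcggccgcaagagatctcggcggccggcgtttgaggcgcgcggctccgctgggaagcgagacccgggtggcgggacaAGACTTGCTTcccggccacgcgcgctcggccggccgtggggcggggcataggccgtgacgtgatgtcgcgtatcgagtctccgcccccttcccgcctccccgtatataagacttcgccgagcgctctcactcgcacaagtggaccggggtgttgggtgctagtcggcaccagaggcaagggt
RPS27L: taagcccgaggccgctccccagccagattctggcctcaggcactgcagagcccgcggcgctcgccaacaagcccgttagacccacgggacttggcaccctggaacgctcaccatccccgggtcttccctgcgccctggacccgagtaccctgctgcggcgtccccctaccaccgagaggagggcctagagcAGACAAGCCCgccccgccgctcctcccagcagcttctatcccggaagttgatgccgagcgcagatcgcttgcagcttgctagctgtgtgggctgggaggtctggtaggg
CDKN1A: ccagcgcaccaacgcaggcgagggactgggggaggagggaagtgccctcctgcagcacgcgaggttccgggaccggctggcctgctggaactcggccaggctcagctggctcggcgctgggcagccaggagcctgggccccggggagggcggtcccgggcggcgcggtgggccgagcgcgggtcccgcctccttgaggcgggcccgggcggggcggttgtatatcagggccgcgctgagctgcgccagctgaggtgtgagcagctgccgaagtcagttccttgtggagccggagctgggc
The half-site begins 34 bases before the start in AEN, 132 bases before it in PLK2 and 59 bases before it in RPS27L. A match is only a match of letters, and p53 sites of many targets are known to lie outside such a window.

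Array medians over the named genes ran from 5.67 to 5.80 on the log2 scale, a likeness that quantile normalization sets. Of 10 listed myeloid markers 8 were measured, and the control levels of all 8 differed between the lines (F-test, adjusted p under 0.05), with a median span of 3.94 log2. SPI1, the transcription factor that defines myeloid cells, had control means of 8.65 to 9.96, while MPO, the peroxidase of myeloid granules, ran from 5.00 in OCI-AML3 to 12.14 in HL-60 and CD68 from 4.54 in HL-60 to 11.39 in NOMO-1. Of 5 T cell markers, CD3D, CD3E, CD3G and CD2 lay between 2.18 and 4.68 in control cells and CD5 between 6.11 and 6.52. Some arrays of members, among them TRAF4, TIGAR, PERP, TP53INP1 and EDA2R, read as low as CD3D, CD3E, CD3G and CD2. So did HL-60 control arrays of CDKN1A, RRM2B and SESN1 and treated MV4-11 arrays of FAS. A fold, or the size of a step between lines, is less certain there. Myeloid markers moved with treatment in part of the lines, by the thresholds given below. In MV4-11 1 was called higher (CSF3R) and in NOMO-1 1 (PTPRC), against 2.39% and 4.75% of all genes. Called higher were also 3 in THP-1 (MPO, LYZ and ITGAM), 2 in OCI-AML3 (LYZ and ITGAM) and 3 in U-937 (LYZ, ITGAM and CSF3R). The shares of all genes there were 1.72%, 1.9% and 0.3%. None was called lower. MOLM-13 and HL-60 had no call (0.859% and 0.26% of all genes higher). In HL-60 5 of 8 were lower, with a median change of -0.13, and in OCI-AML3 4 of 8 were lower. The mean change over the lines was above 0 for 8 of 8, as for 8312 of 17687 genes. An unadjusted p under 0.05 was reached by 4 (5.78% of all genes higher). The part of this in the members' changes was not tested. Among the measured markers of B, T, erythroid and stromal or epithelial cells, only CD2 in NOMO-1 (2.37 in control and 3.75 in treated cells) and DCN in OCI-AML3 (4.19 and 5.35) passed the same thresholds. The replicate number left a trace in the members: CCNG1, CCNG2, PPM1D, RRM2B and RPS27L were higher in replicate 1 than in replicate 2 in all 14 line and condition groups, and PHLDA3 was lower in all 14. Over all genes, 7.72% were higher and 2.76% lower in this way. The mean shift between replicates had a median size of 0.38 log2 over the members and 0.24 over all genes, and its part in the results was not tested beyond the fits with the replicate number as a block.

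In control cells the p53 targets differed between lines more often than genes at large. An F-test over the 7 lines (limma, adjusted p under 0.05) was passed by 19 of 32 members (59.4%), against 29.8% of all genes (25 members and 46.5% of all genes once replicates were blocked), and the line means spanned at least 1 log2 for 25 members (78.1%), against 44.7%. The median span was 1.69 log2 over the members and 0.92 over all genes. The 17687 genes include 4785 whose mean stayed under 5 log2 in every group, and the 32 members include 1. Such dim genes have less room to differ, and they also stand in the shares of all genes given below. Their part in the contrast was not tested. HL-60 had the lowest mean for 15 members, and MOLM-13 the highest for 10, where 18.5% and 9.96% of all genes were lowest or highest in those lines. A deficient line had the lowest mean for 28 members (64.9% of all genes), and a competent line the highest for 20 (32.4% of all genes).

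**Figure D1:**
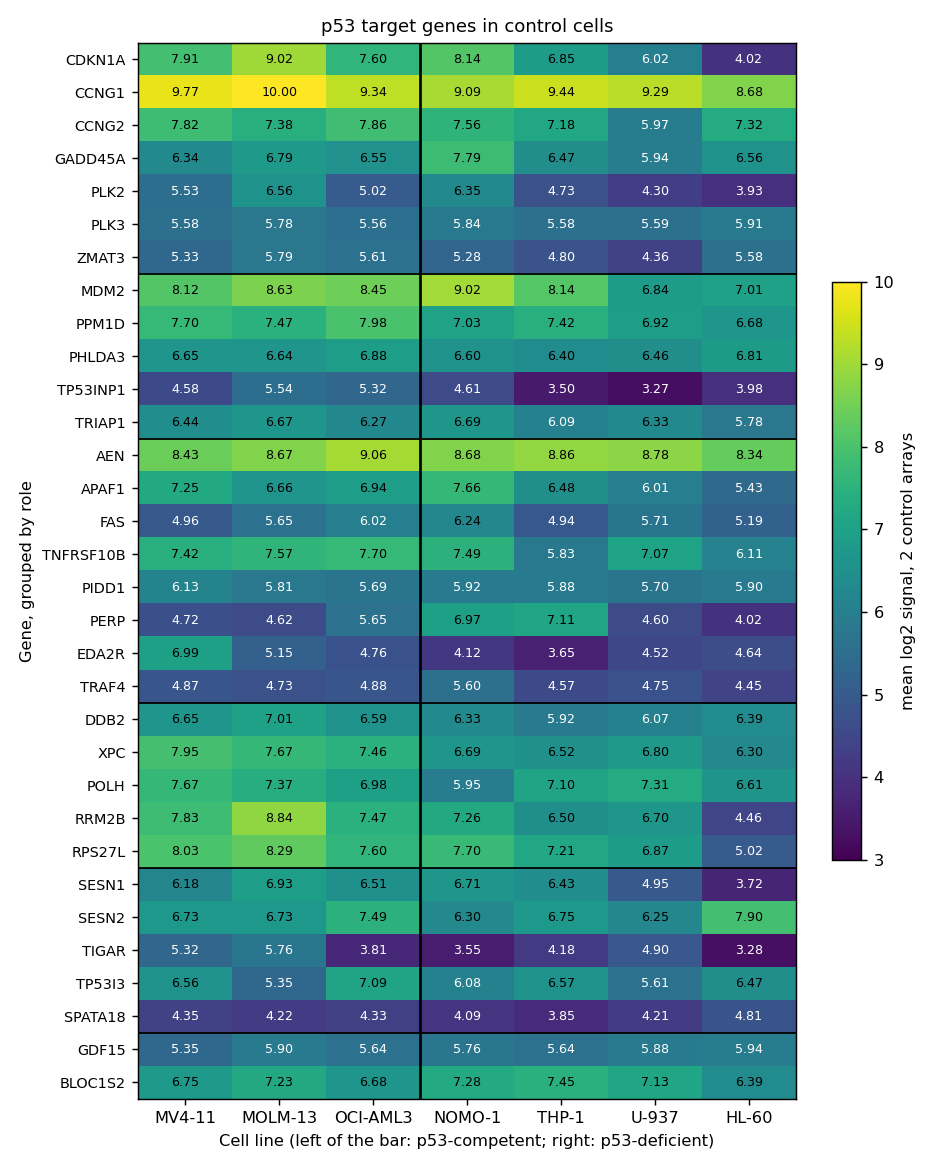
Mean log2 signal of 2 control arrays for the 32 measured p53 targets (rows, grouped by role) in the 7 lines (columns), with the p53-competent lines left of the bar. HL-60 is low for CDKN1A (4.02), RRM2B (4.46), RPS27L (5.02) and SESN1 (3.72), and NOMO-1, right of the bar, is high for MDM2 (9.02) and CDKN1A (8.14).

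CDKN1A, which encodes the CDK inhibitor p21 and is the best known arrest target of p53, had the widest span of control levels, 4.99 log2. Its 2 control arrays read 8.97 and 9.06 in MOLM-13, 8.20 and 8.07 in NOMO-1 cells, 7.60 and 8.21 for MV4-11, 7.98 and 7.23 for OCI-AML3, then 6.93 and 6.76 for THP-1, 5.72 and 6.32 for U-937 and finally 4.32 and 3.73 for HL-60. Only the step from U-937 down to HL-60 (2.00 log2) passed the test between neighbours in this order (adjusted p = 0.000749), and the other steps had adjusted p from 0.14 to 0.887. NOMO-1, which is counted as p53-deficient, thus lay within the range of the competent lines.

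Of the 10 measured members grouped here under DNA repair and metabolism, 5 were lowest in HL-60 (XPC, RRM2B, RPS27L, SESN1 and TIGAR). Highest there were 2, SESN2 (8.13 and 7.67) and SPATA18 (4.25 and 5.36). RRM2B, the small subunit of the ribonucleotide reductase that p53 induces, read 9.04 and 8.64 in MOLM-13, 8.26 and 7.41 for MV4-11, 7.94 and 7.01 for OCI-AML3 cells, 7.91 and 6.60 in NOMO-1, then 6.70 and 6.69 for U-937, 7.08 and 5.91 for THP-1 and 4.81 and 4.11 for HL-60. HL-60 fell below the next line by 2.04 log2 (adjusted p = 0.0097). RPS27L, a ribosomal protein paralog induced by p53, ran from a mean of 8.29 in MOLM-13 to 6.87 in U-937, and its HL-60 arrays read 5.32 and 4.71, a step of 1.85 log2 (adjusted p = 0.00161). SESN1, a sestrin that restrains mTORC1 under stress, was lowest in U-937 (4.79 and 5.10) and HL-60 (4.12 and 3.32), and its other lines had means of 6.18 to 6.93. Neither of the steps that led down to these lines passed the test (adjusted p = 0.137 and 0.104).

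A pair of members of the cell death group had an order of their own. EDA2R, a receptor of the TNF family, read 6.95 and 7.02 in MV4-11, which was 1.84 log2 above MOLM-13 (adjusted p = 0.00869), and the means of the other lines lay between 3.65 and 5.15. PERP, a membrane protein of cell junctions, was highest in the deficient lines THP-1 (7.04 and 7.18) and NOMO-1 (6.91 and 7.03), stood at 5.54 and 5.75 in OCI-AML3 and was lowest in HL-60 (4.40 and 3.64). The step from NOMO-1 to OCI-AML3 was 1.32 log2 (adjusted p = 0.0401). MDM2 was highest in NOMO-1 (9.51 and 8.53) and lowest in U-937 (7.01 and 6.66), with MV4-11 and HL-60 separated by 1.11 log2 (adjusted p = 0.0486) while no step between neighbours from NOMO-1 down to MV4-11 passed the test. Other members varied little, with a span of 0.35 log2 for PLK3, 0.44 for PIDD1 and 0.49 for PHLDA3.

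Set side by side with lines as the samples, 3 against 4, the competent lines had higher control levels for 26 of 32 members (81.2%), where 47.1% of all genes were higher, and the median difference was 0.57 log2 over the members and -0.02 over all genes. Past the thresholds used throughout, an unadjusted p under 0.05 and a log2 difference of at least 1, were XPC, TP53INP1, RRM2B and EDA2R, or 12.5% of members against 0.882% of all genes. DDB2 and PPM1D joined them when the fold was left out (18.8% against 3.04%). No member was lower in the competent lines by either rule, where 0.718% and 1.96% of all genes were. None of the 17687 genes had an adjusted p under 0.05, and XPC came nearest among the members (adjusted p = 0.813).

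XPC recognizes DNA damage for nucleotide excision repair. Its 6 control arrays of competent lines read 7.29 to 8.02 with a median of 7.68, and its 8 arrays of deficient lines 6.02 to 7.02 with a median of 6.66, so that the groups did not overlap on any array. The means of the lines were 7.69 ± 0.24 (SD, n = 3) and 6.58 ± 0.22 (SD, n = 4), a difference of 1.12 ± 0.19 (SE). The XPC call was lost, on the fold alone, without MV4-11 (0.99) or without replicate 2 (0.97). DDB2, which works with XPC on damaged DNA, differed by 0.57 ± 0.19, with line means of 6.59 to 7.01 against 5.92 to 6.39. The DDB2 difference lost its p without MOLM-13 (0.44) or without replicate 1 (0.55). For RRM2B the difference was 1.82 ± 0.67 and the line means were 7.47 to 8.84 against 4.46 to 7.26, while single arrays overlapped. Its call was lost, on p alone, without MV4-11 (1.93) or MOLM-13 (1.43).

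TP53INP1, a cofactor that promotes phosphorylation of p53, read 4.14 to 5.89 in arrays of competent lines and 3.11 to 5.24 in those of deficient lines, a difference of 1.31 ± 0.37. Its NOMO-1 mean (4.61) lay just above that of MV4-11 (4.58). PPM1D, the phosphatase that dephosphorylates p53, differed by 0.70 ± 0.22, with line means of 7.47 to 7.98 against 6.68 to 7.42, but by 0.36 among the MLL-r lines alone, where its p and that of TP53INP1 (1.00) were over 0.05. PPM1D also lost its p without OCI-AML3 (0.57). EDA2R differed by 1.40 ± 0.53, and was 0.72 without MV4-11. Its call was lost there and, on p alone, without NOMO-1, without THP-1 or with the MLL genotype as a covariate. Line means did not overlap for 5 members, PPM1D, EDA2R, DDB2, XPC and RRM2B (15.6%), where 3.38% of all genes were separated in this direction. CDKN1A had the largest difference, 1.92 ± 0.89, and did not pass, with deficient lines spread from 4.02 in HL-60 to 8.14 in NOMO-1.

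How many members were called depended on single lines. Without MV4-11 there was 1, and without NOMO-1 there were 8. By unadjusted p alone 4 and 11 members were higher there, against 1.62% and 3.59% of all genes. The number higher in the competent lines stayed between 22 (without OCI-AML3) and 28 (without NOMO-1), where 46.4% and 44.7% of all genes were higher. A wider list of 40 measured p53 targets, written down from general knowledge, had 19 genes higher in the competent lines and a median difference of -0.03 log2. Its calls were TRIM22, an antiviral ubiquitin ligase (1.76 ± 0.48 SE), BAX, which forms pores in mitochondria during cell death (1.07 ± 0.23), and TNFAIP8, which was lower (-1.54 ± 0.58). By the same rule 0.882% of all genes were called higher and 0.718% lower. BAX stood at 9.65 ± 0.18 (SD, n = 3) and 8.58 ± 0.37 (SD, n = 4).

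**Figure D2:**
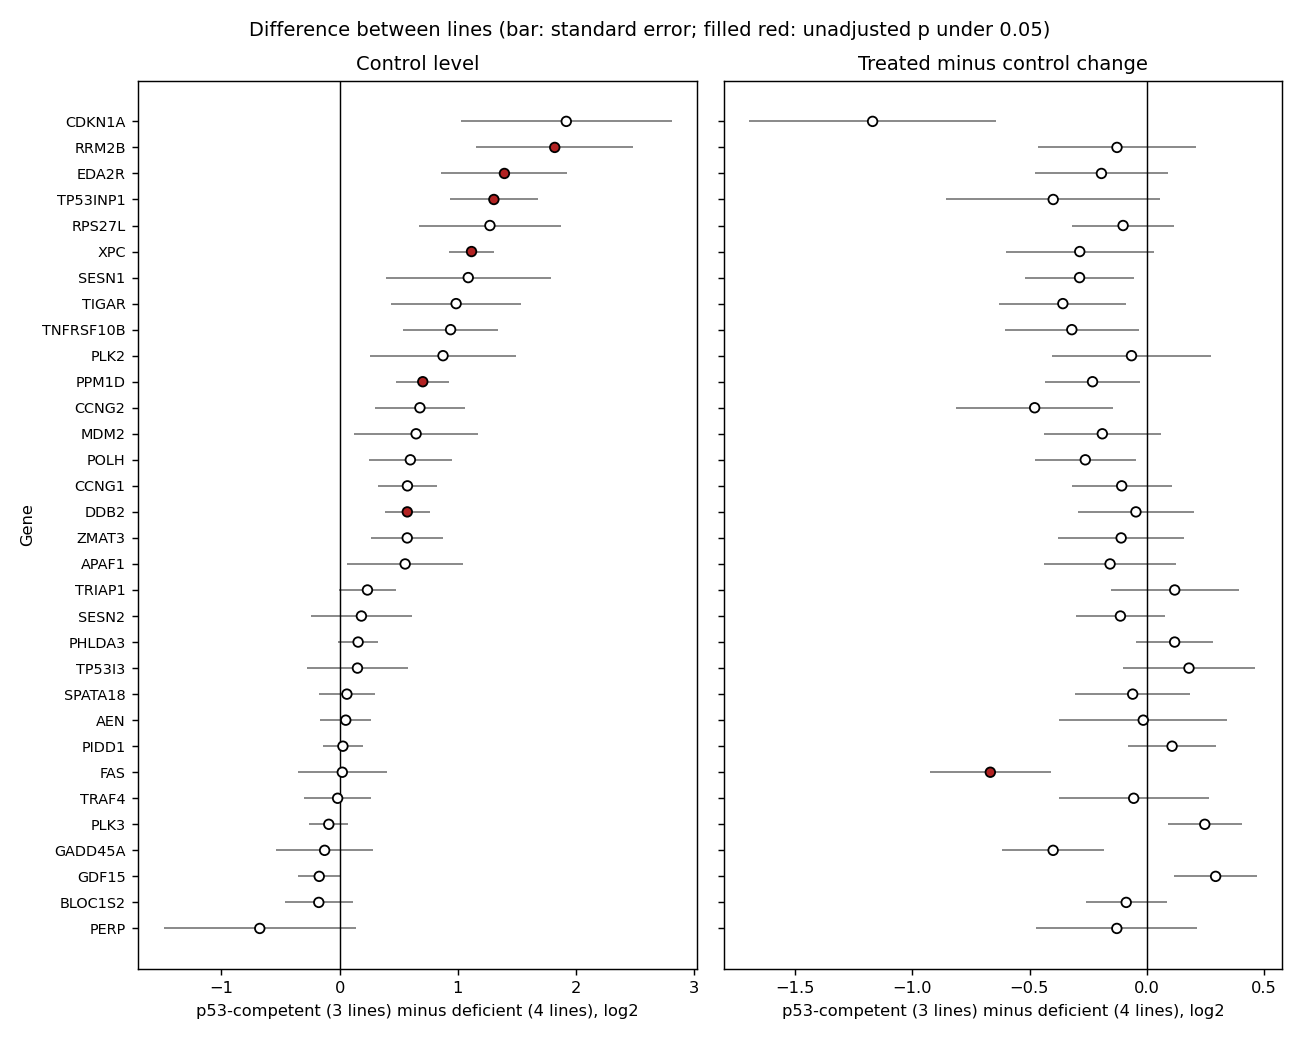
Difference between the 3 p53-competent and the 4 deficient lines in log2, for the control level (left) and for the treated minus control change (right), with 1 point per member and its standard error as a bar; red points had an unadjusted p under 0.05. On the left 26 of 32 points lie right of 0, and on the right 26 of 32 lie left of it, a count that falls to 17 without MV4-11.

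After Pinometostat p53 targets were called in both directions and in 4 of the 7 lines. Of 224 pairs of a member and a line, 6 were called higher and 6 lower at an unadjusted p under 0.05 and a log2 change of at least 1, or 2.68% each way, against 1.74% and 0.896% of all gene and line pairs. The calls fell on 11 members, and 21 members were called in no line. Called higher in at least 1 line were 5 members (15.6%, against 8.38% of all genes). Called lower in at least 1 line were 6 (18.8%, against 5.38%). MV4-11 had 3 calls, all lower, where 1.52% of all genes were lower and 2.39% higher, NOMO-1 had 3 higher and 3 lower (4.75% and 3.12% of all genes), THP-1 had 2 higher (1.72%), and HL-60 had 1 higher (0.26%). In MOLM-13 there was no call (0.859% of all genes higher, 0.0848% lower), nor in OCI-AML3 (1.9% and 0.537%) or U-937 (0.3% and 0.113%). At an unadjusted p under 0.05 and any fold, MV4-11 had 10 members, all lower (4.93% of all genes), NOMO-1 had 4 higher and 3 lower (6.03% and 5.17%), and THP-1 had 5, all higher (3.52%). By that rule MOLM-13 had 1 higher (TP53I3; 1.4% of all genes), HL-60 had 1 higher (0.814%), U-937 had 1 lower (TIGAR; 1.51%) and OCI-AML3 had 0 (3.62% of all genes higher, 1.74% lower). The median change of the 32 members was -0.23 log2 in MV4-11, 0.19 in THP-1 and between -0.07 and 0.10 in the other lines.

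Only CDKN1A in MV4-11 also passed an adjusted p under 0.05, where 0.215% of all genes were lower. With the replicate number, which pairs the arrays, as a block, 19 pairs did: 6 in MV4-11, 8 in NOMO-1 and 5 in THP-1, against 2.71% of all genes lower in MV4-11, 7.85% higher and 7.61% lower in NOMO-1 and 2.89% higher in THP-1. These 19 were all called pairs but PERP in HL-60, with CDKN1A in NOMO-1 and THP-1, GADD45A and APAF1 in THP-1, AEN, FAS and TRAF4 in MV4-11 and XPC in NOMO-1 added. The block leaves little within a line to estimate a gene's own spread. Adjusted p with the block, here and below, thus rests largely on the spread that limma pools over genes.

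**Figure D3:**
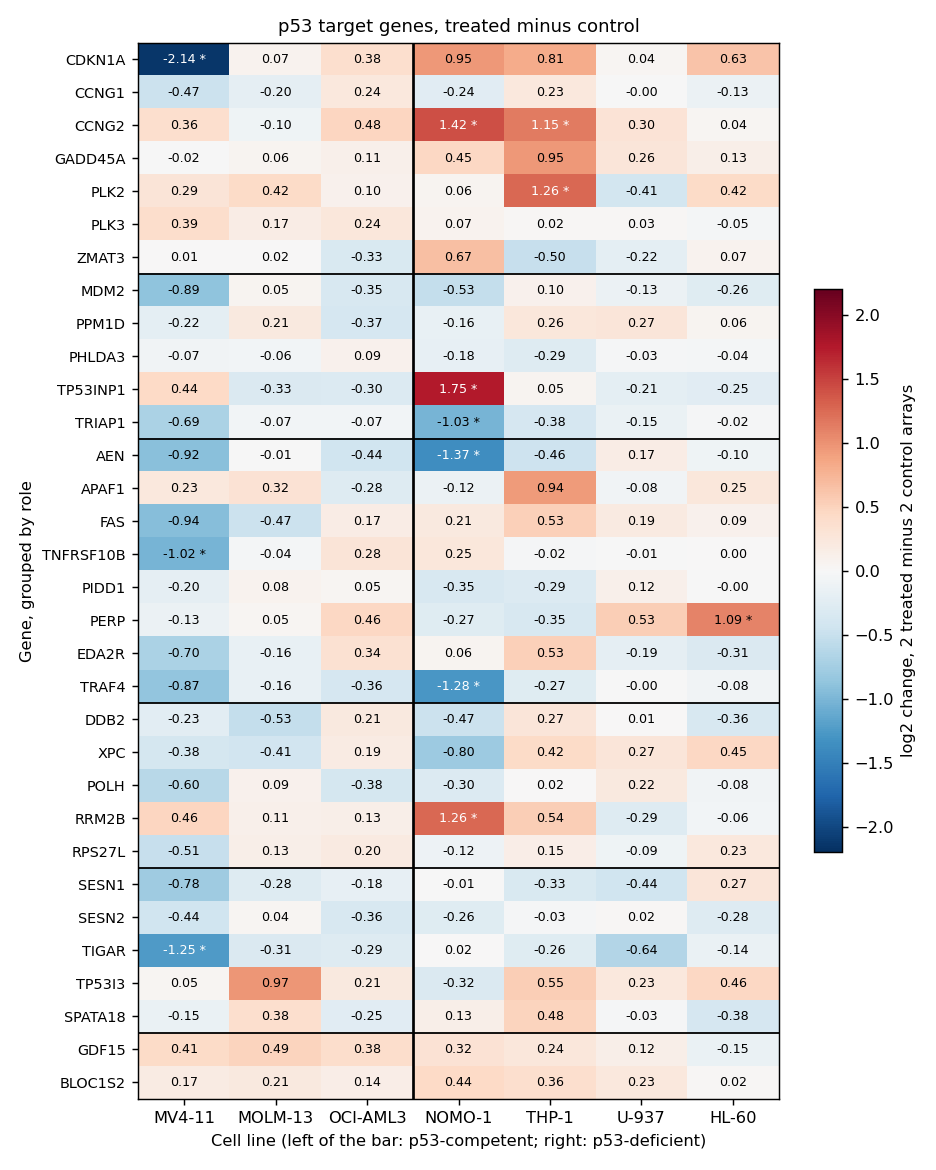
Treated minus control change in log2 (2 arrays against 2) for each member and line; stars mark pairs with an unadjusted p under 0.05 and a change of at least 1. CDKN1A runs from -2.14 in MV4-11 to 0.95 in NOMO-1, and no star falls in MOLM-13, OCI-AML3 or U-937.

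Among the arrest genes CDKN1A fell in MV4-11 and was higher in other lines. Its MV4-11 arrays read 7.60 and 8.21 in control and 5.87 and 5.66 in treated cells, a 4.41-fold fall (log2 change -2.14 ± 0.31 SE, adjusted p = 0.0100, and 0.00249 with the block). They did not overlap, as held for 16 of 32 members in that line. Both pairs of arrays moved down, by -1.73 and -2.55. In NOMO-1 it read 8.20 and 8.07 in control and 8.97 and 9.21 in treated cells, a change of 0.95 ± 0.33 (adjusted p = 0.256, and 0.00828 with the block). THP-1 went from 6.93 and 6.76 to 7.55 and 7.75, a change of 0.81 ± 0.29 (adjusted p = 0.58, and 0.0463 with the block). The remaining lines differed by 0.63 in HL-60, 0.38 in OCI-AML3, 0.07 in MOLM-13 and 0.04 in U-937, none of them past an unadjusted p of 0.05. MOLM-13, which like MV4-11 is MLL-r and was taken as competent, read 8.97 and 9.06 before and 9.10 and 9.08 after treatment.

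CCNG2, an atypical cyclin linked to arrest that is also driven by FOXO factors, was the only member called in more than 1 line. It rose in NOMO-1 from 8.33 and 6.79 to 9.17 and 8.79, a change of 1.42 ± 0.49 (adjusted p = 0.259, and 0.000671 with the block), with the 2 control arrays far apart. In THP-1 it went from 7.41 and 6.94 to 8.61 and 8.04, a change of 1.15 ± 0.33 (adjusted p = 0.3, and 0.00598 with the block). PLK2, a kinase of the G1 phase and one of the members with a half-site in its window, rose in THP-1 from 4.85 and 4.61 to 6.08 and 5.89 (log2 change 1.26 ± 0.29, adjusted p = 0.129, and 0.00336 with the block). GADD45A, a small protein that binds CDK1 complexes, differed by 0.95 in THP-1 (adjusted p = 0.0200 with the block) and by at most 0.45 elsewhere. CCNG1, PLK3 and ZMAT3 had no call, and their changes lay between -0.50 and 0.67.

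In the group listed as feedback, in which TRIAP1 and PHLDA3 were also placed, MDM2 had no call. Its change was -0.89 ± 0.38 in MV4-11 (8.34 and 7.89 in control, 7.77 and 6.69 in treated cells), -0.53 in NOMO-1 (9.51 and 8.53, then 8.80 and 8.18), -0.35 in OCI-AML3 and between -0.26 and 0.10 in the other lines. TP53INP1 rose in NOMO-1 from 5.24 and 3.98 to 6.74 and 5.98, the largest rise of any member (log2 change 1.75 ± 0.47, adjusted p = 0.122, and 1.98e-05 with the block). TRIAP1, a mitochondrial protein that holds back apoptosis, fell in NOMO-1 from 6.68 and 6.71 to 5.86 and 5.47 (log2 change -1.03 ± 0.34, adjusted p = 0.219, and 0.00468 with the block). PPM1D and PHLDA3, an inhibitor of AKT, stayed between -0.37 and 0.27 in every line.

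Cell death members were mostly lower in MV4-11. The median change of the 8 was -0.78 log2 there and 7 of 8 were negative, while 52.5% of all genes were lower in that line. TNFRSF10B, the death receptor DR5 for the ligand TRAIL, fell from 7.81 and 7.03 to 6.77 and 6.03 (log2 change -1.02 ± 0.37, adjusted p = 0.337, and 0.0205 with the block). The death receptor FAS differed by -0.94 ± 0.31 (4.77 and 5.15, then 3.74 and 4.29) and passed an adjusted p only with the block (0.0293). AEN, a nuclease that p53 induces in apoptosis and another member with a half-site, went in MV4-11 from 8.38 and 8.48 to 7.51 and 7.50 (change -0.92, adjusted p = 0.0308 with the block). It fell in NOMO-1 from 8.77 and 8.59 to 7.19 and 7.42 (log2 change -1.37 ± 0.33, adjusted p = 0.083, and 0.000319 with the block). Its arrays did not overlap in either line, as held for 16 of 32 members in MV4-11 and 12 in NOMO-1.

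TRAF4, an adaptor of TNF receptor signaling, fell in NOMO-1 from 5.62 and 5.57 to 4.59 and 4.04 (log2 change -1.28 ± 0.35, adjusted p = 0.124, and 0.000684 with the block) and differed by -0.87 in MV4-11 (4.85 and 4.89, then 3.96 and 4.04). PERP rose in HL-60 from 4.40 and 3.64 to 5.47 and 4.74, a change of 1.09 ± 0.41 whose adjusted p was 1.0 with and without the block. APAF1, the core of the apoptosome, differed by 0.94 in THP-1 (adjusted p = 0.0210 with the block). EDA2R read 6.95 and 7.02 in MV4-11 controls and 6.05 and 6.51 after treatment, a change of -0.70 that did not pass an adjusted p with or without the block (0.452 and 0.0877). PIDD1, the scaffold of the complex that activates caspase-2, had no call.

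Of the DNA repair members only RRM2B was called. It rose in NOMO-1 from 7.91 and 6.60 to 8.93 and 8.11 (log2 change 1.26 ± 0.49, adjusted p = 0.335, and 0.000812 with the block), again with control arrays far apart. CCNG2 and RRM2B are both among the members higher in replicate 1 in all 14 groups. XPC moved the other way there, from 7.02 and 6.36 to 6.27 and 5.50 (change -0.80, adjusted p = 0.0246 with the block). The other members grouped under repair, DDB2, the bypass polymerase gene POLH and the ribosomal protein paralog RPS27L, stayed between -0.60 and 0.27.

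TIGAR, which lowers glycolytic flux, fell in MV4-11 from 5.78 and 4.85 to 4.69 and 3.45 (log2 change -1.25 ± 0.45, adjusted p = 0.337, and 0.0114 with the block). In U-937 it read 4.91 and 4.88 in control and 4.05 and 4.46 in treated cells, a change of -0.64. TP53I3, an oxidoreductase, differed by 0.97 ± 0.34 in MOLM-13 (5.38 and 5.32, then 6.05 and 6.60), the largest change of a member in that line, with an adjusted p of 1.0 (0.136 with the block). SESN1 differed by -0.78 in MV4-11 (6.63 and 5.73, then 5.38 and 5.41), with an adjusted p of 0.485 (0.117 with the block). SESN2, the other sestrin, and SPATA18, which acts in mitochondrial quality control, had no call. GDF15, a secreted stress cytokine, and BLOC1S2, a subunit of lysosome-related complexes, had none either.

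**Figure D4:**
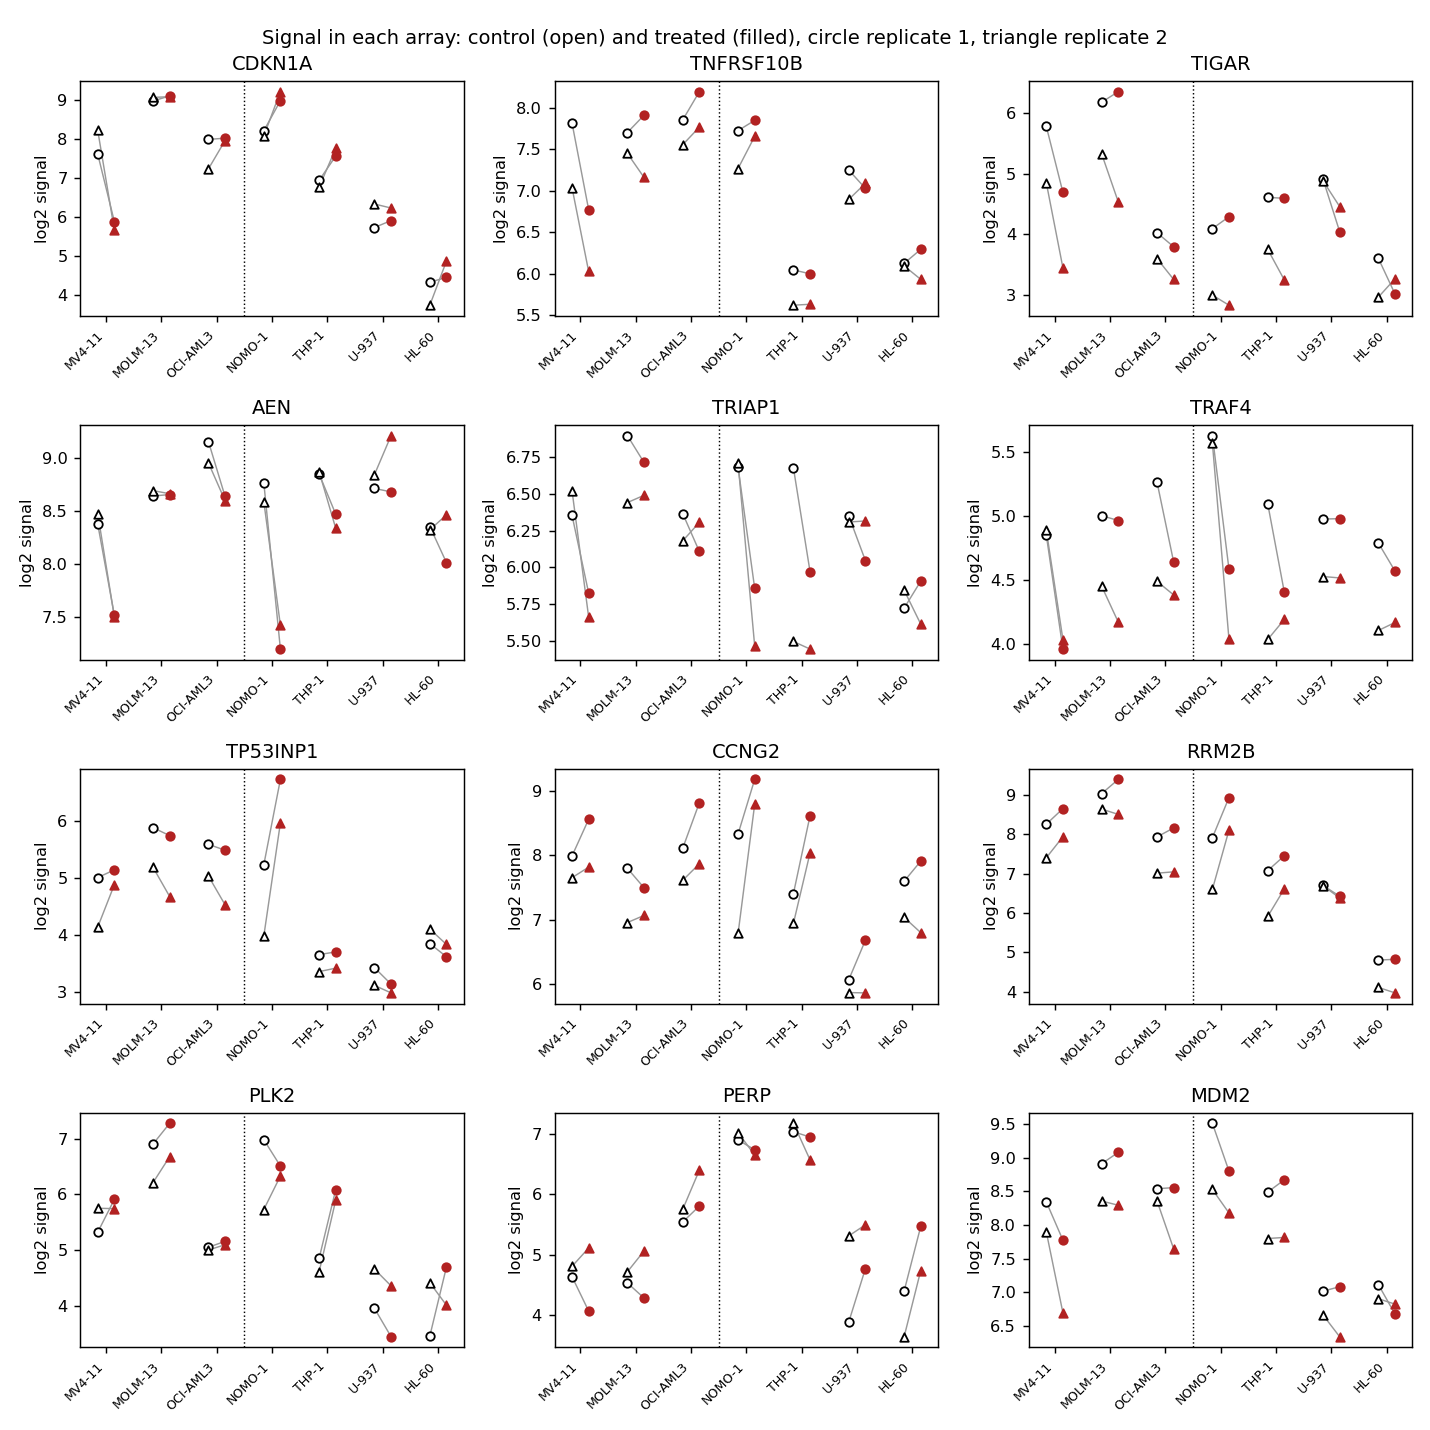
Log2 signal of each array for 12 members in the 7 lines (open: control; filled: treated; circle: replicate 1; triangle: replicate 2; a line joins arrays with the same number; the dotted line divides competent from deficient lines). CDKN1A falls in MV4-11 alone, and AEN and TRAF4 fall most in MV4-11 and NOMO-1, with TRAF4 lower in 7 of 7 lines. The 2 control arrays of NOMO-1 lie far apart for CCNG2, TP53INP1 and RRM2B.

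The response of 2 members differed between lines by a test of the difference itself. The line by treatment F-test over 28 arrays was passed by CDKN1A (adjusted p = 0.000598) and AEN (adjusted p = 0.0312), or 6.25% of members against 3.33% of all genes. With the replicate block it was also passed by TP53INP1 (0.00146), RRM2B (0.0177) and TNFRSF10B (0.0439), or 15.6% against 10.7%.

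Competent and deficient lines were then compared for the response. The change was lower in the competent lines for 26 of 32 members (81.2%), against 51.8% of all genes, and without MV4-11 for 17 (51.6% of all genes). FAS alone had an unadjusted p under 0.05, at -0.41 ± 0.56 (SD, n = 3) against 0.25 ± 0.19 (SD, n = 4), a difference of -0.67 ± 0.26 with an adjusted p of 0.893. CDKN1A had the largest difference, -1.17 ± 0.53, which MV4-11 set: the change was 0.07 and 0.38 in the other competent lines and 0.04 to 0.95 in the deficient ones. No member was called by p and fold (0.317% of all genes larger, 0.209% smaller), and none of the 17687 genes passed an adjusted p. At an unadjusted p under 0.05, 3.11% of all genes had a smaller and 2.04% a larger change in the competent lines.

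Averaged over the 7 lines, 10 members had an unadjusted p under 0.05, 5 higher and 5 lower (15.6% each, against 5.78% and 7.23% of all genes), and no member or other gene passed an adjusted p. CCNG2 (0.52 ± 0.17 SE), TP53I3 (0.31 ± 0.14), GADD45A (0.28 ± 0.12), GDF15 (0.26 ± 0.10) and BLOC1S2 (0.23 ± 0.08) were higher. AEN (-0.45 ± 0.17), TRAF4 (-0.43 ± 0.15), TIGAR (-0.41 ± 0.14), TRIAP1 (-0.34 ± 0.13) and MDM2 (-0.29 ± 0.12) were lower. BLOC1S2 was higher in 7 of 7 lines, as were 1.75% of all genes, and TRIAP1 and TRAF4 were lower in 7 of 7, as were 2.75%. The average of CDKN1A was 0.11 ± 0.30.

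Genes around the pathway were counted from lists written down from general knowledge. Of 24 measured regulators of p53, the calls were CHEK1, a kinase of the DNA damage checkpoint (-1.48 in MV4-11), TP53BP1, a platform for double-strand break repair (-1.28 in NOMO-1), HIPK2, a kinase that phosphorylates p53 (1.35 in MOLM-13), and CDKN2A. The last encodes the INK4 inhibitor p16 and ARF, which blocks MDM2, and it fell in MV4-11 from a mean of 9.40 to 7.99 (log2 change -1.41, adjusted p = 0.0427). Of all genes, 1.52% were called lower in MV4-11, 3.12% lower in NOMO-1 and 0.859% higher in MOLM-13. MDM4, the partner of MDM2, had no call, with changes from -0.54 to 0.33. Among 40 other p53 targets NOMO-1 had 7 higher and 2 lower (4.75% and 3.12% of all genes) and MOLM-13 3 higher (0.859%). THP-1 and OCI-AML3 had 2 higher each (1.72% and 1.9%), and MV4-11 had 1 each way (2.39% higher, 1.52% lower). HL-60 had 1 higher (0.26%) and U-937 none (0.3% higher, 0.113% lower). Those of NOMO-1 were led by CYFIP2 (1.92, adjusted p = 0.0202), a regulator of actin, and by the matrix protein gene THBS1 (1.91, adjusted p = 0.0258), which also rose in OCI-AML3 (1.62, adjusted p = 0.0246). PTAFR, the receptor for platelet-activating factor, was called higher in 4 lines, THP-1, NOMO-1, MV4-11 and MOLM-13, by 1.01 to 1.32.

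Cell cycle genes that p53 is known to lower through p21 and the DREAM complex were lower in the line in which CDKN1A fell. In the lines in which it did not fall, from 12 (THP-1) to 21 (NOMO-1 and MOLM-13) of the 24 measured were also lower. In MV4-11 all 24 had a negative change with a median of -0.90, where 52.5% of all genes were lower, and 8 were called lower (1.52% of all genes), among them BUB1B (-1.35), CDK1 (-1.30), CCNB1 (-1.27) and BUB1 (-1.23). In NOMO-1, where CDKN1A was 0.95 higher, 21 of 24 were lower (51.5% of all genes) with a median of -0.67 and 3 were called (3.12% of all genes), E2F1, CCNB1 and MCM3. None of the 24 passed an adjusted p in either line, while with the replicate block 16 did in MV4-11 (2.71% of all genes) and 10 in NOMO-1 (7.61%), all lower. The other lines had no call on this list and medians between -0.23 and -0.01. Lower were 21 of 24 in MOLM-13 (53.9% of all genes), 17 in OCI-AML3 (54.4%) and 15 in U-937 (49.8%). HL-60 had 14 lower (49.9%) and THP-1 had 12 (51%). Averaged over the 7 lines all 24 were lower, 12 of them at an unadjusted p under 0.05 (7.23% of all genes). Its 20 promoter windows held the CHR element (TTTGAA, searched on both strands) in 8 cases (40.0%), against 12% of all windows and 1 of 27 windows of the p53 targets.

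GDF15 and SESN2 can also follow the stress factor ATF4, so its targets were counted beside them. In MV4-11 the 18 measured ATF4 targets had a median of -0.41, with SLC7A11, the cystine transporter, higher (2.49, adjusted p = 0.00500) and the serine synthesis genes PSAT1 (-1.46) and PHGDH (-1.44) called lower. NOMO-1 had 2 higher, SLC7A11 (1.84) and DDIT4 (1.30), and 2 lower, PSAT1 (-1.59) and PHGDH (-1.01), while SLC7A11 was called lower in THP-1 (-1.40). MOLM-13 had 1 call, which was higher (0.859% of all genes). The shares of all genes were 2.39% higher and 1.52% lower in MV4-11, 4.75% and 3.12% in NOMO-1, and 0.718% lower in THP-1. GDF15 and SESN2 themselves had no call in any line, with changes of -0.15 to 0.49 and -0.44 to 0.04.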

How the data were processed

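Labelled RNA of 7 AML lines was read on 28 arrays with 1 channel. The authors deposited 1 log2 signal for each probe set and array, from RMA (background correction, quantile normalization, summary) in R 3.6.1 per the labels; their filters, if any, are not stated in the sources used here. Of 27189 entries, 21448 were transcript probe sets, 17709 of them carried 1 gene symbol, and averaging the 20 genes with several gave 17687 genes, tested without a filter. The table gave no detection calls, and the number of arrays limits the precision.

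Comparisons used limma 3.58.1 (lmFit and eBayes, R 4.3.3) with Benjamini-Hochberg adjustment over all 17687 genes: 2 treated against 2 control arrays within each line, an F-test over the 7 control groups, and tests on 7 line means or 7 line differences, 3 competent against 4 deficient lines. A call needed an unadjusted p under 0.05 and a log2 difference of at least 1. These follow the cutoffs of the study, whose fold change of 1 was read here as log2 and whose own analysis was paired, unlike these fits. The replicate number pairs the arrays: deviations of same-numbered control and treated arrays had a correlation over genes of 0.42 in HL-60, the lowest of the 7 lines, and up to 0.64 in NOMO-1. The main fits leave the pairing out, and for adjusted p the block is given beside the members' counts and values it changes. Alternatives were the block, joint fits, centred arrays, dim genes left out, arrays, replicates or lines left out, and the MLL genotype. The procedure was checked on simulated data.

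The members and gene lists were chosen with earlier results of these data known. Values of every array are given for CDKN1A and MDM2 in part of the lines, for called members and for the widest control spans, and other members by ranges. Names of probe sets and coordinates come from the platform annotation and RefSeq (GRCh38.p14). Some items are not reported here.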

Additional observations from a re-analysis of the deposited data

Results flagged for a closer look

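The 7 lines were compared for each member's control level and change, and in 5 of 64 such groups 1 line lay far from the rest, a gap that chance gives in about 1 of 20 groups. The change of CDKN1A in MV4-11 (-2.14) lay apart from that of the other lines, which ran from 0.04 to 0.95. So did the change of TNFRSF10B in MV4-11 (-1.02, others -0.04 to 0.28) and that of TP53INP1 in NOMO-1 (1.75, others -0.33 to 0.44). In control cells CCNG2 was low in U-937 (5.97, others 7.18 to 7.86) and TRAF4 was high in NOMO-1 (5.60, others 4.45 to 4.88).

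The response to Pinometostat differed between lines for CDKN1A (line by treatment F-test in limma, adjusted p = 0.000598) and AEN (adjusted p = 0.0312). Between competent and deficient lines the change of FAS differed by -0.67 log2 at an unadjusted p under 0.05, with an adjusted p of 0.893.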

How the results depend on the processing

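No result turned its direction under any alternative, but part of the alternatives could not turn it. The block, the joint fits, the adjusted p, the dim genes left out and the unnamed probe sets included change p and not the log2 value. By adjusted p alone, 0 member and line pairs were higher and 1 lower, and 0 members were called between the p53 groups in control cells or on average over the lines. With the replicate block and adjusted p, an alternative chosen after seeing the data, 9 pairs were higher and 10 lower, and the block changed no call of a member and line pair by unadjusted p and fold. Leaving out 1 array leaves 1 array in an arm, which is then assumed to vary like the 2 of the other arm, and all p-values of these fits rest on those 2. This gave 4 to 10 pairs higher and 3 (without treated replicate 2) to 10 lower, and the fits without a line or a replicate number gave 1 (without MV4-11) to 8 (without NOMO-1) members higher in competent control cells, 0 to 1 with a smaller change there and 3 (without replicate 1) to 10 changed on average. Centred arrays gave 1 member with a smaller change in competent lines. Within MLL-r lines 1 member was lower in competent control cells and 3 had a smaller change, and the cause was not tested. Shares of all genes called by p and fold are not given here for these fits or those without a line or replicate. Such counts of members thus have no background beside them. CDKN1A in MV4-11 held in 12 of 12 alternatives. Its log2 change moved only with centred arrays or an array left out, from -2.45 to -1.84. TNFRSF10B and TIGAR in MV4-11 lost their call without control replicate 1 (-0.63 and -0.78) or treated replicate 2 (-0.65 and -0.62). Without control replicate 2, CCNG2 (0.65) and RRM2B (0.61) in NOMO-1, CCNG2 in THP-1 (0.92) and PERP in HL-60 (0.71) lost it. Without treated replicate 1, RRM2B in NOMO-1 (0.85), CCNG2 in THP-1 (0.86) and PERP in HL-60 (0.72) did, and without treated replicate 2, TRIAP1 (-0.84) and TRAF4 (-1.01) in NOMO-1. FAS lost its p without MV4-11 (-0.40), MOLM-13 (-0.64), THP-1 (-0.58) or replicate 2 (-0.49).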
